A study of Mus musculus with 4 samples.

Results

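Cxcl9, Cxcl10 and Cxcl11 are the genes of the chemokines that bind the receptor CXCR3, although Cxcl11 has a broken reading frame in the mouse strain used, and their expression was followed in MC38 cells with and without IFN-γ under normoxic and hypoxic conditions. The genes were found in the count table by their NCBI gene IDs, 17329 for Cxcl9, 15945 for Cxcl10 and 56066 for Cxcl11. They are 3 of the 27179 genes in the table, and all 3 passed the filter on low counts. MC38 is a colon carcinoma cell line from a C57BL/6 mouse, and the cells of every library carry the wild-type label WT. Control cells received no IFN-γ, and treated cells received IFN-γ, for which the study's usual treatment was 5 ng/mL for 24 h. Oxygen was 20% in the normoxic and 1.5% in the hypoxic cultures. Each of the 4 conditions was sequenced as 1 library, so no value below has a replicate, and the line was grown alone, without the T cells on which CXCR3 acts.

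Chemokines are small secreted proteins that guide migrating leukocytes. CXCR3 sits on activated T cells and natural killer cells, and its ligands draw these cells into inflamed tissue and tumors. All of these ligands were named for their induction by interferons. IFN-γ acts on their genes through JAK kinases, STAT factors and interferon regulatory factors, and NF-κB factors also act on Cxcl10.

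The genes lie together on mouse chromosome 5 and are all transcribed from the minus strand. In the assembly GRCm38.p6, the one that mm10 names, Cxcl9 spans chr5:92321331-92328079, Cxcl10 spans chr5:92346638-92348889 and Cxcl11 spans chr5:92359544-92363296 in the RefSeq annotation. Their spacing is 18558 bases between Cxcl9 and Cxcl10 and 10654 bases between Cxcl10 and Cxcl11. Cxcl9 and Cxcl10 are annotated as protein-coding. Cxcl11 is annotated as a transcribed pseudogene by RefSeq and as a polymorphic pseudogene by GENCODE, since the C57BL/6 allele is the broken one. Its reads therefore measure RNA and not a full-length chemokine.

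The 250 bases before the start of Cxcl9 (GRCm38.p6, minus strand, chr5:92328080-92328329) and of Cxcl10 (minus strand, chr5:92348890-92349139) are shown because interferon and NF-κB factors act on such sequences. Cxcl11 has no entry in the RefSeq promoter table used. Capitals mark the core of an interferon-stimulated response element (ISRE) in both promoters and NF-κB motifs in Cxcl10.
Cxcl9: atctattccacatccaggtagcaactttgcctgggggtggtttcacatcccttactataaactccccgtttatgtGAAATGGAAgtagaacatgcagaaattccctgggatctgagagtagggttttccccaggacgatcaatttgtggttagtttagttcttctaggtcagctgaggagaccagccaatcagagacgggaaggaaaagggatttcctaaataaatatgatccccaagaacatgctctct
Cxcl10: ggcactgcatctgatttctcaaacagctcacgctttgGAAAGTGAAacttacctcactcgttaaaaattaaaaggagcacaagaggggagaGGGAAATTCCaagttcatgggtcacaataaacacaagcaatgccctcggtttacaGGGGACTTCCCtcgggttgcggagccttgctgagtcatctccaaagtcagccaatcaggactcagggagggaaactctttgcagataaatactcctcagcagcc

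The ISRE core, searched as GAAANNGAA on both strands, occurred once in each promoter, as GAAATGGAA from 175 to 167 bases before the start of Cxcl9 and as GAAAGTGAA from 213 to 205 bases before the start of Cxcl10. Of 32851 RefSeq promoter windows of the same length, 7.13% held this core. The NF-κB motif had no match in Cxcl9 and matched at 2 separate places in Cxcl10, from 159 to 150 and from 104 to 94 bases before the start, and 7.25% of all windows held it. Overlapping matches at the second place were counted as 1 place. The STAT motif GAS, searched as TTCNNNGAA, was in neither window and in 7.02% of all. The hypoxia response element, searched as NCGTG with A or G as its first base, had no match in Cxcl9 and 1 in Cxcl10, in reverse, and 38.6% of all windows held it. These matches describe letters only, and a site outside the window, or one that departs from the searched letters, would not have been seen.

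The libraries held between 34302971 and 34537939 counts on genes. Labels were checked on known responses, with lists chosen when earlier results of these data were known, so the check is not independent. Of 12 hypoxia targets, hypoxia raised 11 and lowered 1 (Pfkfb3), and of 24 reference IFN-γ targets, IFN-γ raised 22. Over all genes tested, hypoxia raised 8.23% and lowered 6.83%, and IFN-γ raised 4.76%. Of 20 immune cell markers, 13 had at most 3 counts in every library, as did 11013 of all 27179 genes. The 20 together summed to 3.27 to 3.70 CPM (counts scaled to 1000000 per library). Lyz2 was the highest, with 69 and 96 counts in the normoxic and hypoxic control and 77 and 82 with IFN-γ. Only 3 of the 20 were tested, and none of them was called. Defining epithelial markers were nearly absent, since Krt18, Epcam, Cdh1 and Cdx2 had at most 3 counts in every library and Krt8 had 90, 56, 56 and 48 counts. Genes of endothelial cells and fibroblasts summed to 105 to 142 CPM, mostly Col3a1 and Pdgfra. Of 11 such genes 8 were tested and 1, Col3a1, was called, at a log2 change of −0.39 with IFN-γ (adjusted p = 1.981e-07 by edgeR), with 2859 and 3238 counts in the controls and 2373 and 2233 with IFN-γ. The 1 of 8 stands beside the 1.1% of all genes tested that IFN-γ lowered. The part of Col3a1 in the results below was not tested. Low counts were mostly even. Among genes with 1 to 20 counts, 63.2% to 64.8% had an even number in each library, against 49.8% to 50.6% of genes with more than 1000 counts, the pattern that counting both reads of a fragment would give. The counting unit is not stated in the sources used here, so intervals were also computed on counts divided by 2. All intervals cover counting error only.

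The chemokines differed widely in level. Cxcl9 had 8 counts in the normoxic control, 2 in the hypoxic control, 99 in normoxic cells with IFN-γ and 94 in hypoxic cells with IFN-γ. In the same order, Cxcl10 had 3657, 3322, 12345 and 10134 counts, and Cxcl11 had 24, 24, 198 and 232 counts. Both IFN-γ counts were above both control counts for each gene. The share of all genes that separate in this way was not computed, so this describes the counts only.

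**Figure D1:**
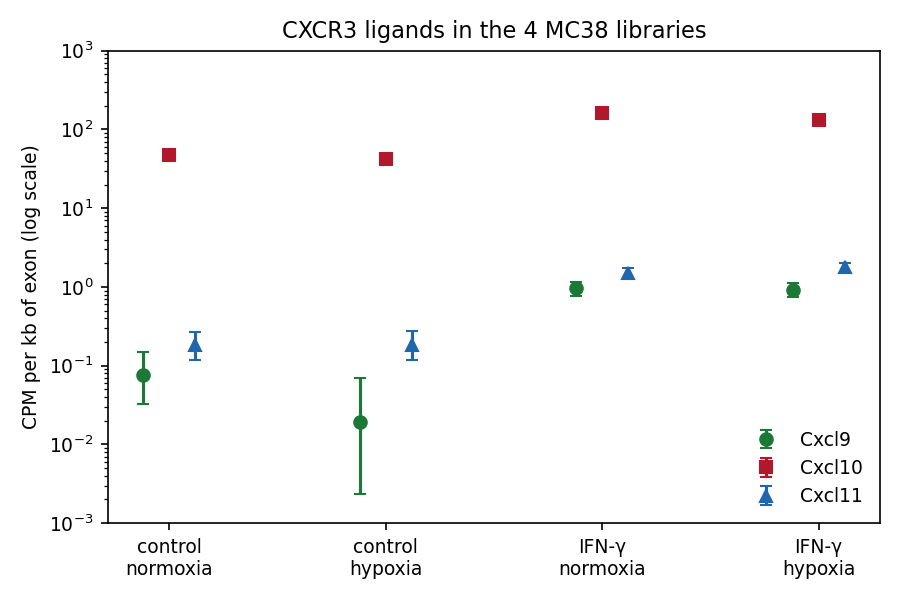
Level of each CXCR3 ligand in CPM per kb of exon (log axis) in the 4 libraries, 1 point per library, with bars for the exact Poisson 95% interval of the count (hidden by the symbol for Cxcl10). Cxcl10 stood between 42.7 and 159.8, and Cxcl9 and Cxcl11 stayed under 2 in every library.

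Levels were set against each other per kb of exon. Cxcl10 reached 46.9 CPM per kb in the normoxic control, 42.7 in the hypoxic control, 159.8 with IFN-γ under normoxic conditions and 131.3 with IFN-γ under hypoxic conditions. This placed it at rank 1197, 1349, 285 and 345 among all genes. Cxcl11 measured 0.183 CPM per kb in both controls, 1.52 with IFN-γ under normoxic conditions and 1.79 under hypoxic conditions. Cxcl9 measured 0.0766, 0.0192, 0.957 and 0.91 CPM per kb in the same order, and its 2 counts in the hypoxic control lie under the floor of 3 counts, which is 0.0868 CPM there. Cxcl10 was the highest of the ligands in every library and Cxcl9 the lowest. Per kb, Cxcl10 made up 99.5% of the summed level of the ligands in both controls, 98.5% with IFN-γ under normoxic conditions and 98.0% with IFN-γ under hypoxic conditions. It exceeded Cxcl11 by 256.7-fold in the normoxic control and by 73.6-fold with both stimuli. Cxcl11 exceeded Cxcl9 per kb by 1.59-fold (95% interval 1.24 to 2.05) with IFN-γ under normoxic conditions and by 1.96-fold (1.54 to 2.52) under hypoxic conditions. In the normoxic control the ratio was 2.39 (1.04 to 6.14), and with the longest transcript as the length its interval reached 0.993, so the order of the last pair is not settled there. The length used for Cxcl11, 3794 bases, is GENCODE's, whose gene reaches position 92365485, past the RefSeq end at 92363296. Its longest transcript has the same length, so that alternative does not vary it. The annotation behind the counts is not stated in the sources used here. Every value of Cxcl11 per kb may therefore be off by more than these intervals cover.

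IFN-γ raised all 3 chemokine genes. Both stimuli entered one additive model per gene, tested by the quasi-likelihood method of edgeR with Benjamini-Hochberg adjustment over 13580 genes. The log2 change with IFN-γ was 4.26 (SE 0.431, adjusted p = 4.809e-21) for Cxcl9, 1.70 (SE 0.0575, adjusted p = 9.254e-183) for Cxcl10 and 3.17 (SE 0.243, adjusted p = 1.881e-36) for Cxcl11. Of all genes tested, 4.76% were raised by IFN-γ and 1.1% were lowered. The IFN-γ call held in every alternative test that included the gene, but the size of the p-values depended on the settings. In the main fit edgeR set the degrees of freedom of its pooled spread to infinity, and with DESeq2's size factors it set them to 23.2, at nearly the same log2 changes. The adjusted p-values were then 5.741e-08 for Cxcl9, 2.171e-18 for Cxcl10 and 1.077e-10 for Cxcl11. This model has 1 residual degree of freedom per gene, pooled across genes, so a true interaction and culture-to-culture differences both enter its spread, which is no substitute for replicate cultures. In bulk RNA, fewer expressing cells and less RNA per cell cannot be told apart.

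The ligand with the high control level had the smallest fold change. Under normoxic conditions, Cxcl9 was 12.5-fold higher with IFN-γ (95% interval 6.10 to 29.8), Cxcl11 was 8.33-fold higher (5.44 to 13.3) and Cxcl10 was 3.41-fold higher (3.29 to 3.54). Under hypoxic conditions, Cxcl11 was 9.75-fold higher (6.40 to 15.5) and Cxcl10 3.08-fold higher (2.96 to 3.20). Cxcl9 was 47.4-fold higher under hypoxic conditions, but against 2 counts, which gave an interval of 12.8 to 397. The log2 change of Cxcl11 exceeded that of Cxcl10 by 1.26 (0.66 to 1.87) under normoxic and by 1.64 (1.03 to 2.24) under hypoxic conditions. Cxcl9 exceeded Cxcl10 by 1.79 (0.78 to 2.81) and 3.63 (1.82 to 5.44) on the same scale. Cxcl9 and Cxcl11 differed by 0.53 (−0.65 to 1.71) under normoxic conditions, which counting error covers. Their difference of 1.99 (0.09 to 3.90) under hypoxic conditions was covered too once counts were divided by 2 (−0.73 to 4.26). In absolute terms the order turned around. IFN-γ added 254.3 CPM of Cxcl10, 5.08 CPM of Cxcl11 and 2.66 CPM of Cxcl9 under normoxic conditions, and 199.7, 6.08 and 2.69 CPM under hypoxic conditions.

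**Figure D2:**
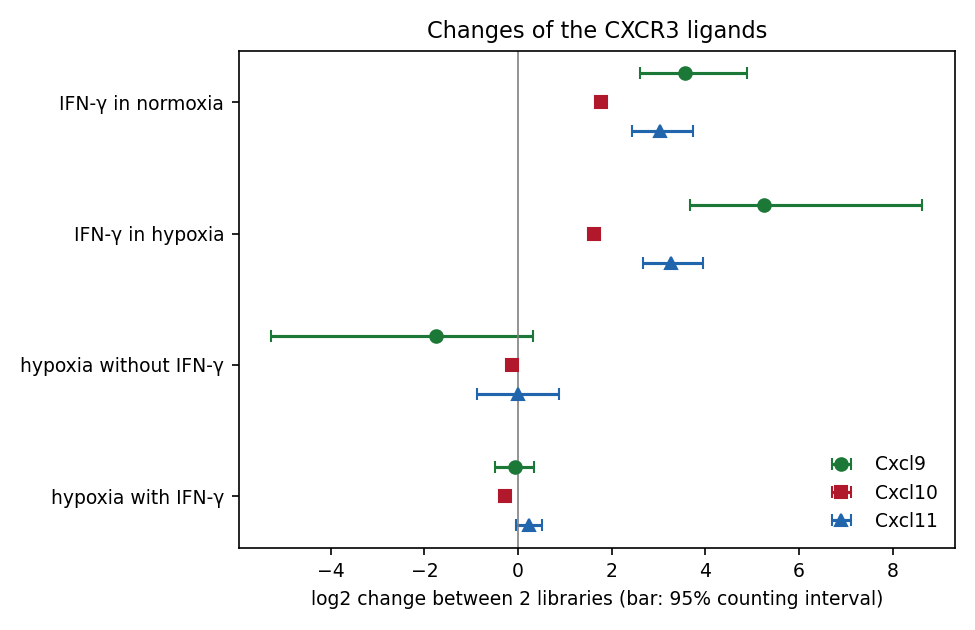
Log2 change of each ligand between pairs of libraries (horizontal axis), with IFN-γ at each oxygen level and with hypoxia in each IFN-γ state, and bars for the 95% counting interval (hidden by the symbol for Cxcl10). The IFN-γ changes lie between 1.62 and 5.25, and the hypoxia changes of Cxcl10 are −0.14 and −0.28.

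In the additive fit, hypoxia lowered Cxcl10 by a small amount, and no hypoxia change was detectable for Cxcl9 or Cxcl11. The log2 change of Cxcl10 with hypoxia was −0.21 (SE 0.0564, adjusted p = 0.002257 by edgeR), and 6.83% of all genes tested were lowered and 8.23% raised. This call was lost in DESeq2's Wald test (adjusted p = 0.0684) and in a comparison of 2 libraries with 2 that left IFN-γ out of the model (adjusted p = 0.901). Cxcl10 was lower under hypoxic conditions in both pairs, with a log2 change of −0.14 (−0.20 to −0.07) without IFN-γ and −0.28 (−0.32 to −0.25) with IFN-γ. On counts divided by 2, the intervals were −0.23 to −0.04 and −0.34 to −0.23. The loss with IFN-γ came to 64.2 CPM. For Cxcl11 the edgeR estimate was 0.18 (SE 0.224, adjusted p = 0.667), with 24 counts in each control and 0.23 (−0.05 to 0.51) on the log2 scale between the IFN-γ libraries. For Cxcl9 it was −0.26 (SE 0.36, adjusted p = 0.701). Its 8 and 2 control counts gave a log2 change of −1.76 with an interval from −5.27 to 0.33, and its 99 and 94 counts with IFN-γ gave −0.07 (−0.50 to 0.35). Among the IFN-γ libraries, the hypoxia change of Cxcl11 lay above that of Cxcl10 by 0.51 (0.24 to 0.79, and 0.12 to 0.90 on counts divided by 2). That of Cxcl9 lay above Cxcl10 by 0.21 (−0.20 to 0.62), within counting error.

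Whether oxygen altered the response to IFN-γ was described by the difference between the log2 changes, hypoxic minus normoxic. With 1 library per condition this difference was not tested. It was −0.15 (−0.22 to −0.07) for Cxcl10, 0.23 (−0.63 to 1.08) for Cxcl11 and 1.69 (−0.38 to 3.76) for Cxcl9. On counts divided by 2, the interval of Cxcl10 was −0.26 to −0.04. An interval below 0 was common, since 17% of all genes tested had one. Over the 10443 genes that reached 100 counts in each library, the central 95% of these differences ran from −0.36 to 0.40, and the value of Cxcl10 lies inside that range.

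The ligands were then placed among the 36 chemokine genes in the table. They took 32.7% (95% Clopper-Pearson interval 31.8 to 33.5) of all chemokine counts in the normoxic control and 38.0% (37.0 to 39.0) in the hypoxic control. With IFN-γ their share was 62.3% (61.6 to 62.9) under normoxic and 67.2% (66.4 to 67.9) under hypoxic conditions. Nearly all of it was Cxcl10. These are shares of counts, not corrected for gene length, and their intervals use the counts as deposited. With IFN-γ under normoxic conditions, Cxcl10 had 12345 counts against 5041 for Ccl2, but 159.8 against 129.1 CPM per kb. A share per kb was not computed, so a majority per kb is not shown. The higher share under hypoxic conditions came with fewer ligand counts, 3348 against 3689 without and 10460 against 12642 with IFN-γ, because all chemokine counts together dropped further, from 11298 to 8812 and from 20305 to 15578. Per kb, Cxcl10 came second to Ccl2, a monocyte attractant, in both controls, where Ccl2 measured 119.7 and 66.9 CPM per kb. With IFN-γ, Cxcl10 was first and Ccl2 followed at 129.1 and 59.0 CPM per kb. Ccl5 was next after these in every library, between 16.0 and 22.5 CPM per kb.

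**Figure D3:**
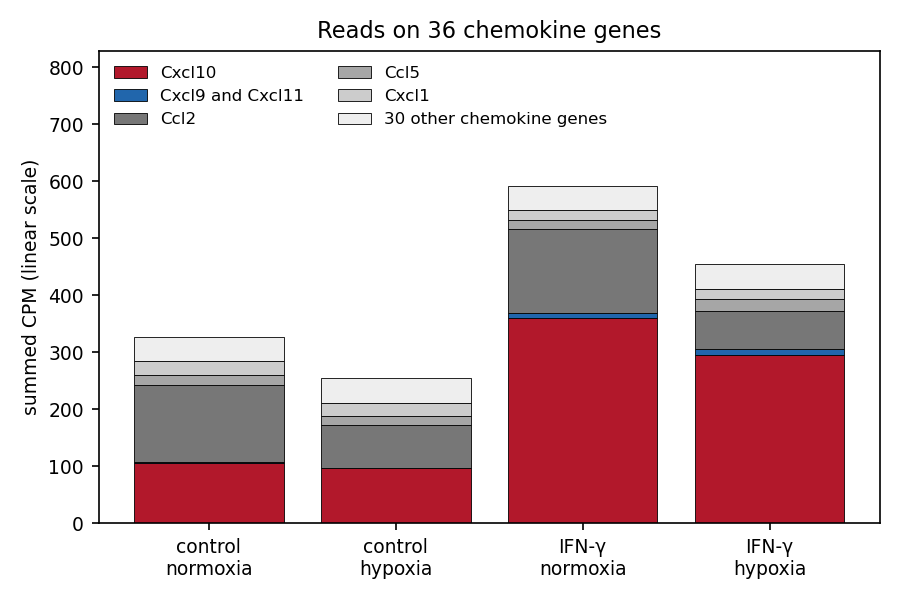
Summed CPM of 36 chemokine genes (linear axis from 0) in the 4 libraries, stacked by gene and not corrected for gene length. The genes other than the 6 named are pooled at the top. Cxcl10 takes the largest part of both IFN-γ bars, Ccl2 takes the largest part of the control bar under normoxic conditions, and Cxcl9 with Cxcl11 form a thin band.

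Outside the ligands, edgeR called no CXC chemokine raised by IFN-γ. Of 12 in the list, 5 were tested, and edgeR called Cxcl1, which draws neutrophils, with a log2 change of −0.42 (SE 0.092, adjusted p = 0.000145) and Ppbp at −0.62 (SE 0.184, adjusted p = 0.0158). Thus 2 of the 5 tested were lowered, beside 1.1% of all genes tested. Neither call held in DESeq2's test. Cxcl12, Cxcl13, Cxcl14, Cxcl15, Cxcl17 and Pf4 had at most 3 counts in every library. Of 21 CC, CX3C and XC chemokines, 8 were tested, and 1, Ccl8, rose with IFN-γ, by 1.51 on the log2 scale (SE 0.348, adjusted p = 0.000425 by edgeR). It was named after its values were seen, because it is the single gene called, and DESeq2's test did not call it. The share of 1 in 8 stands beside the 4.76% of all genes tested that IFN-γ raised. Ccl3, Ccl6, Ccl9, Ccl12, Ccl17, Ccl19, Ccl20, Ccl22, Ccl24, Ccl26 and Xcl1 had at most 3 counts in every library. Hypoxia lowered Ccl2, with 4719 and 5041 counts under normoxic and 2634 and 2302 under hypoxic conditions, by a log2 change of −0.98 (SE 0.0628, adjusted p = 3.781e-52 by edgeR). It also lowered Ccl7, another monocyte attractant, by −0.89 (SE 0.242, adjusted p = 0.00315 by edgeR), so 2 of 8 were lowered, beside 6.83% of all genes tested. Only 1 of the 2 calls remained in DESeq2's test, and only 1 in the comparison of 2 libraries with 2. The hypoxia change of Ccl2 was thus larger than that of Cxcl10 in both pairs, at −0.84 and −1.13 on the log2 scale.

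The receptor was close to absent in these cells. Cxcr3 had 2, 2, 8 and 2 counts. Among genes whose products scavenge or cut CXCR3 ligands, Ackr3 had 2, 4, 0 and 0 counts and Dpp4, a peptidase that trims their N-terminus, had 0, 10, 0 and 2. Ackr1, Ackr2 and Mmp8 had at most 3 counts in every library. Mmp9, the 1 gene of these 8 that was tested, was called for neither stimulus.

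Genes that carry the IFN-γ signal changed as follows. Of 12 genes for the receptor, its kinases and their brakes, IFN-γ raised 4 and lowered 1, beside 4.76% and 1.1% of all genes tested. Socs1, an inhibitor of JAK kinases, rose (adjusted p = 5.679e-59 by edgeR), with a log2 change of 1.32 under normoxic and 1.69 under hypoxic conditions. In the additive fit Socs3 rose by 0.94 and Usp18 by 0.78 on the log2 scale, and the kinase gene Jak2 rose by 0.56. Ifngr1, the ligand-binding chain of the receptor, fell by 0.25 with IFN-γ (adjusted p = 0.0309 by edgeR), a call that was lost in 5 of the 6 alternatives run for the lists. Hypoxia raised Jak2 by 0.30, Jak1 by 0.29 and Ifngr1 by 0.24 on the log2 scale and lowered none of the list, so 3 of 12 were raised, beside 8.23% of all genes tested. The 3 became 1 in DESeq2's test and 0 in the comparison of 2 libraries with 2.

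Transcription factors of the pathway rose with IFN-γ. Of 11 interferon regulatory factors and partner genes, 10 were tested and 9 rose, beside 4.76% of all genes tested. The median log2 change was 1.81 over the tested genes of the list against −0.01 over all genes tested. Irf1, whose product binds ISRE sequences, rose by 2.43 (SE 0.0548). Nlrc5, an activator of MHC class I genes, rose by 2.66, and Ciita, the activator of MHC class II genes, by 3.97. Batf2 had 1 and 0 counts in the controls and 193 and 258 with IFN-γ. Hypoxia raised 2 of the 10, beside 8.23% of all genes tested. These were Irf1 by 0.24 (adjusted p = 0.000146) and Stat2 by 0.25 (adjusted p = 0.000447), both by edgeR. Their changes were opposite in direction to that of Cxcl10, and neither call held in the comparison of 2 libraries with 2. Among 14 genes for NF-κB factors and their feedback, IFN-γ raised 1, Nfkbiz, by 0.60, a share near the 4.76% of all genes tested and so no result about the list. Hypoxia raised 3 of the 14, beside 8.23% of all genes tested. It raised Tnfaip3, a feedback inhibitor, by 0.98 (SE 0.104, adjusted p = 8.191e-19 by edgeR), Nfkbiz by 0.37 and Ikbkg by 0.30. It lowered Nfkbib by 0.20 (adjusted p = 0.0492), named after its values were seen, and none of those 6 alternatives kept that call. The 1 of 14 lowered is also near the 6.83% of all genes tested.

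IFN-γ raised 22 of 24 reference targets, beside 4.76% of all genes tested, with a median log2 change of 2.10. Iigp1, an immunity-related GTPase, rose by 6.43 (SE 0.0928), Gbp5, a guanylate-binding protein gene, by 5.24 (SE 0.164), and Ido1, which degrades tryptophan, had 0 and 2 counts in the controls and 207 and 280 with IFN-γ. Hypoxia raised 13 of the 24 and lowered none, beside 8.23% raised and 6.83% lowered of all genes tested. The median log2 change was 0.23 against 0.00 over all genes tested. The raised targets were led by Gbp7 at 0.42, Gbp2 at 0.40 and Iigp1 at 0.31. The 13 became 7 with no filter on low counts, 4 in DESeq2's test and 0 in the comparison of 2 libraries with 2. Between the IFN-γ libraries, 4 of 23 targets with more than 3 counts in the normoxic control were lower under hypoxic conditions. Fas had the lowest change at −0.75, followed by Ifit1 at −0.15, so that 1 of the 23 lay below the −0.28 of Cxcl10. Fas itself was not called raised by IFN-γ (adjusted p = 0.247 by edgeR), and it had 66 and 39 counts in these libraries. Of 238 genes that IFN-γ raised by a log2 change of at least 1, 33 (13.9%) were lower under hypoxic than under normoxic conditions with IFN-γ, and the median change was 0.23. The ligands are themselves among the 238 genes, and Cxcl9 and Cxcl10 are among the 33, so this only places them within their own set. The share of all genes tested that were lower was not computed. Cxcl11 lay at that median, with an interval from −0.05 to 0.51. Cxcl9 and Cxcl10 lay below it, Cxcl9 with an interval that spans it.

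**Figure D4:**
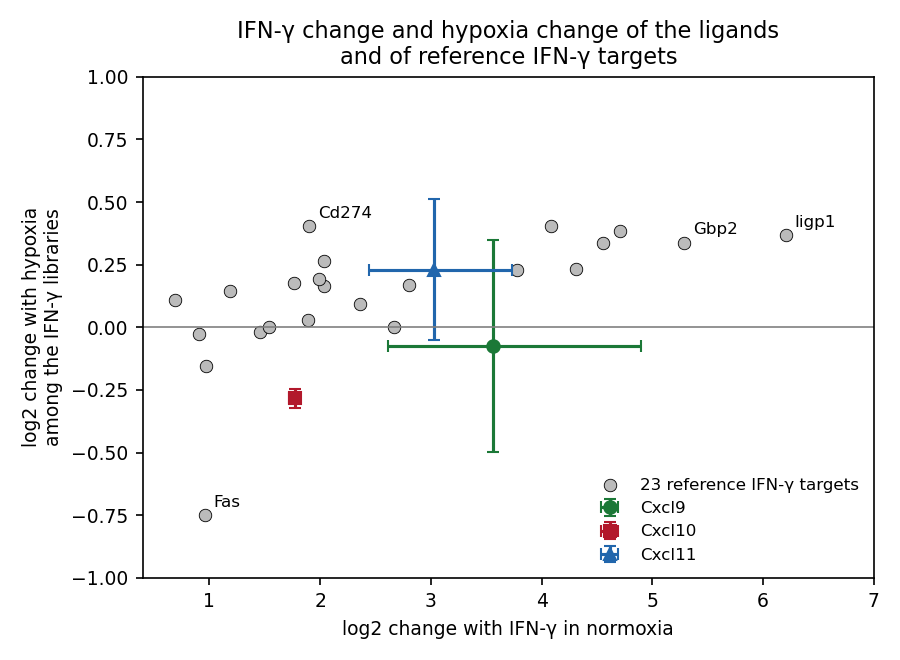
Log2 change with IFN-γ under normoxic conditions (horizontal axis) against log2 change with hypoxia between the IFN-γ libraries (vertical axis) for the ligands, with 95% counting intervals, and for 23 reference IFN-γ targets. Cxcl10 at −0.28 lies below all of these targets but Fas, which was not called raised by IFN-γ, while Cxcl11 at 0.23 lies among them.

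Genes with the most similar pattern were sought by the distance between the log2 changes of the other 3 libraries from the normoxic control, over the 11489 genes that averaged 50 or more counts. For Cxcl11 the nearest were Ly6a (distance 0.23), a stem cell surface antigen, Ifi205 (0.365) and Psmb9 (0.446), a subunit of the immunoproteasome. For Cxcl10 they were Trafd1 (0.34), Idnk (0.342) and Tapbp (0.344), which loads peptides on MHC class I. Each of these lay at 0.13 to 0.15 between the IFN-γ libraries, above the −0.28 of Cxcl10. For Cxcl9 they were Apol7e (1.49), Ly6a (1.74) and Cxcl11 (1.86), all far off, since none had a hypoxia change near −1.76 without IFN-γ. That change of Cxcl9 rests on 8 and 2 counts, with a counting interval from −5.27 to 0.33, so a pattern of its own is not shown.

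Genes next to the ligands had small IFN-γ changes or none that passed the test. The tested neighbors Ppef2, Naaa and Sdad1 on one side and Nup54 on the other were called for neither stimulus. The hypoxia change of Nup54 was just short of a call, at −0.17 (SE 0.0634, adjusted p = 0.057 by edgeR), beside −0.21 for Cxcl10. Scarb2, beyond Nup54, rose by 0.22 with IFN-γ (SE 0.0681, adjusted p = 0.022 by edgeR), and Fam47e had 0 counts. Art3 runs on the opposite strand across Cxcl10 and Cxcl11 and had 2, 4, 5 and 10 counts, too few for the test. The strand setting of the counting is not stated in the sources used here, so reads of Art3 and of the ligands it overlaps might not have been told apart. Of the 31-base words of each gene's transcripts, 0.574% for Cxcl9, 0 for Cxcl10 and 2.32% for Cxcl11 also occurred in another gene, so few reads could have been split between copies.

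**Figure D5:**
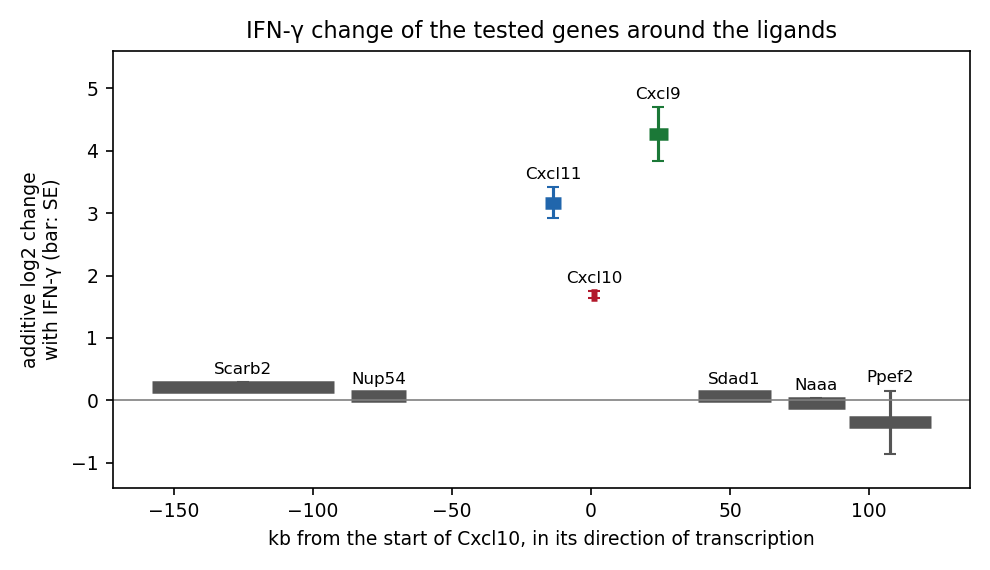
Additive log2 change with IFN-γ (vertical axis, bars for the SE) of the tested genes around the ligands, each drawn over its length in kb from the start of Cxcl10, in its direction of transcription (horizontal axis). The ligands lie between 1.70 and 4.26, and the 5 neighbors lie between −0.35 and 0.22.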

How the data were processed

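RNA from MC38 cells was measured in 4 libraries, 1 per condition. The libraries were strand-specific, poly-A selected and paired-end (100 bases), read on a DNBSEQ instrument and aligned with HISAT2, and the submitters' processing notes name featureCounts and mm10. What the authors deposited are raw counts, 1 whole number per gene and library. The annotation and the strand and multi-read settings are not given in the sources used here. The table held 0 rows without a gene and 0 columns of no sample. Symbols matched 25275 of 27179 IDs.

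Counts were tested with edgeR 4.0.16 in R 4.3.3 (TMM, default filter at 10 counts, additive model, adjusted p under 0.05). The TMM factors ran from 0.993 to 1.01. Pair changes are log2 ratios of CPM with 0.5 counts added, with exact conditional Clopper-Pearson 95% intervals. Lengths are exons joined over all transcripts of GENCODE, and promoters and coordinates are RefSeq's for GRCm38.p6. The script was tested on simulated data. Named genes are the members, up to 3 called genes per list and stimulus with the largest log2 change and a mean of at least 50 counts, list members at or under 3 counts in every library, the 3 nearest in pattern, and neighbors in the genome. Ccl5 and others said to be so were named after their values were seen. Members and lists were chosen with earlier results of these data known. Alternatives were other size factors, other filters on low counts, DESeq2 1.42.0, 2 libraries against 2, single pairs, each library left out, 5 counts added, another gene length and, chosen after seeing the data, counts divided by 2.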

Additional observations from a re-analysis of the deposited data

Results flagged for a closer look

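The signs of some changes of named genes differed between the pairs of libraries, while no ligand did so under TMM scaling. With total counts or DESeq2's size factors the hypoxia change of Cxcl11 was −0.0089 or −0.0028 without IFN-γ and 0.233 or 0.237 with it. None of these differences was tested, and each library is the only one of its condition. On the log2 scale, the normoxic and the hypoxic IFN-γ change were 0.11 and −0.18 for Ccl2, −0.06 and 0.49 for Ccl5, and 0.02 and −0.031 for Jak1. The counting intervals of Ccl2 lay on opposite sides of 0. With hypoxia, Ccl5 changed by −0.21 without IFN-γ and 0.34 with IFN-γ, and its counting intervals lay on opposite sides of 0. Nlrc5 changed by −0.16 without IFN-γ and 0.17 with IFN-γ, also with intervals on opposite sides of 0. Without and with IFN-γ, hypoxia changed Gbp5 by −0.72 and 0.38, Iigp1 by −0.06 and 0.37, Ly6a by −0.13 and 0.48, and Socs3 by −0.12 and 0.18. It changed Usp18 by 0.12 and −0.14, Ppbp by 0.41 and −0.011, and Cxcl1 by −0.04 and 0.0062.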

How the results depend on the processing

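All 3 ligands stayed raised by IFN-γ in every alternative test that included them, with adjusted p-values (edgeR or DESeq2) from 1.472e-09 to 0.00635 for Cxcl9, 2.743e-112 to 0.000691 for Cxcl10 and 5.356e-13 to 0.000858 for Cxcl11, none as small as in the main fit. edgeR's prior degrees of freedom were infinite there and 3.52 to 33.4 in the alternatives. Cxcl9 was not tested where at least 10 counts in every library were required. The hypoxia call of Cxcl10 was lost in the comparison of 2 libraries with 2 (log2 change −0.25, adjusted p = 0.901) and in DESeq2's test (−0.21, adjusted p = 0.0684), so the count of ligands lowered by hypoxia fell from 1 to 0 in each, and over all alternatives its adjusted p ran from 0.00516 to 0.901. The IFN-γ change of Cxcl9 was 5.25 in the hypoxic pair alone, and leaving out 1 library each gave 3.62 to 5.48. Its hypoxia change was −1.76 in the control pair alone, and leaving out 1 library each gave −1.93 to −0.073. With 1 library left out, the IFN-γ change ran from 1.62 to 1.77 for Cxcl10 and 3.05 to 3.28 for Cxcl11. The hypoxia change ran from −0.28 to −0.14 and 0.00 to 0.23. A fit without 1 library has no residual degree of freedom. Its values therefore repeat the single pairs, apart from the count added, and are no separate check.

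Calls within the lists moved as follows. In the comparison of 2 libraries with 2, other CXC chemokines lowered by IFN-γ fell from 2 to 0, CC chemokines raised by IFN-γ from 1 to 0 and those lowered by hypoxia from 2 to 1. There, hypoxia raised 0 receptor and brake genes, 0 regulatory factors, 1 NF-κB gene and 0 reference targets, and IFN-γ raised 0 NF-κB genes. In DESeq2's test, IFN-γ lowered 0 other CXC chemokines and raised 0 CC chemokines, and hypoxia lowered 1 CC chemokine and raised 1 receptor and brake gene and 4 reference targets. With at least 10 counts in every library, 1 other CXC chemokine was lowered by IFN-γ. The 1 receptor and brake gene lowered by IFN-γ became 0 with DESeq2's size factors, no filter, at least 10 counts, 2 libraries against 2 and DESeq2's test. The 1 NF-κB gene lowered by hypoxia became 0 in all 6. Without a filter, hypoxia raised 7 reference targets.

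Over all genes, the 647 raised by IFN-γ became 239 in the comparison of 2 libraries with 2 and 353 in DESeq2's test, and the 149 lowered became 99 with DESeq2's size factors, 71 without a filter, 74 with at least 10 counts, 3 and 16. The 1117 raised by hypoxia became 150 and 362, and the 927 lowered became 26 and 214. The other alternatives gave values within the main interval or 1.5 times the count. No called result changed sign. The hypoxia change of Cxcl11 without IFN-γ, 0.0026, became −0.0089 with total counts and −0.0028 with DESeq2's size factors, far inside its counting interval. The cause of these moves was not tested. Few counts limit Cxcl9 and Cxcl11 in the controls. No paired analysis was possible because the groups compared share fewer than 2 replicate numbers, and the other stimulus was already a term of the model.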
